A study of Mus musculus with 6 samples.

Results

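The collagen genes of the mouse were followed in liver RNA from mice labelled Sec15 KO and WT. Members were taken by name: every probe that is not a control and whose transcript accession belongs to a RefSeq mouse gene with a symbol of the form Col, a number, a, a number. Of 44 such symbols, 43 genes had a probe on the array, with 63 probes of 39429 in all, and Col12a1 had no matched probe. The samples were livers of untreated male mice aged 6 weeks, 3 labelled Sec15 KO and 3 labelled WT, each hybridised to 1 Cy3 array. Sec15 is a subunit of the exocyst, a complex that docks secretory vesicles at the cell surface, and the series is about STAT3 traffic in blood stem cells. The labels name no Cre, promoter, allele or strain, nor which Sec15 gene was deleted, and they do not say that each sample came from its own animal. The spread behind the p-values is that of these samples and could in part be technical.

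Collagens are proteins of 3 chains wound into a helix. Fibrillar types form the load-bearing fibres of connective tissue, network types form the sheets of basement membranes, and the remaining types decorate fibres, anchor cells or span membranes. In healthy liver, stellate cells, portal fibroblasts and endothelial cells make most fibrillar and network collagen, and hepatocytes make collagen XVIII. In fibrosis, activated stellate cells and portal fibroblasts deposit types I and III.

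Values are log2 processed signals minus the 75th percentile of the same array, so 0 is the level of a probe at that percentile and a difference of 1 is a 2-fold change. A probe was tested if 3 or more of the 6 arrays read it well above background, and each gene was represented by its probe with the highest mean. The limma fit covered 22810 genes, with Benjamini-Hochberg adjustment over all of them and a threshold of 0.05. It called 29.6% of these genes, 17.4% higher and 12.2% lower in Sec15 KO, and the median difference of all genes was 0.06. By decile of brightness the median went with brightness, with -0.29 for the dimmest genes and 0.29 for the brightest. Probes well above background made up 64.82% to 65.45% on Sec15 KO arrays and 67.27% to 70.32% on WT arrays. By the scan times in the headers, Sec15 KO replicate 2 and all WT arrays were scanned together (scan 1) and Sec15 KO replicates 1 and 3 at another time (scan 2). WT replicates 1 and 2 carry 1 number in their deposited names and could be 1 animal. Exoc6, a Sec15 gene, was well above background on 0 Sec15 KO arrays and 1 WT array. The Exoc6b probe well above background on all arrays differed by -0.53 (SE 0.15, adjusted p = 0.0426). Neither probe is known to lie in the deleted part, so they do not check the labels.

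Of the 43 collagen genes, 27 passed the detection filter and 16 did not. The probes used for 22 of the 27 were well above background on all 6 arrays. The other 5 were Col27a1 (0 Sec15 KO arrays and 3 WT arrays), Col2a1 (1 Sec15 KO and 3 WT), Col4a2 (2 Sec15 KO and 3 WT), Col6a2 (2 Sec15 KO and 3 WT) and Col17a1 (2 Sec15 KO and 2 WT). Of the 16 genes not tested, 13 had no probe well above background on any array: Col4a3, Col5a2, Col6a5, Col8a1, Col9a3, Col10a1, Col11a1, Col13a1, Col19a1, Col22a1, Col24a1, Col26a1 and Col28a1. Among these are Col10a1, the collagen of growth-plate cartilage, and Col5a2, the partner chain of Col5a1. The remaining 3 were above background on too few arrays. A Col15a1 probe reached it on 2 WT arrays, a Col6a4 probe on 2 WT arrays and another on 1 Sec15 KO array, and a Col6a6 probe on 1 Sec15 KO array.

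**Figure D1:**
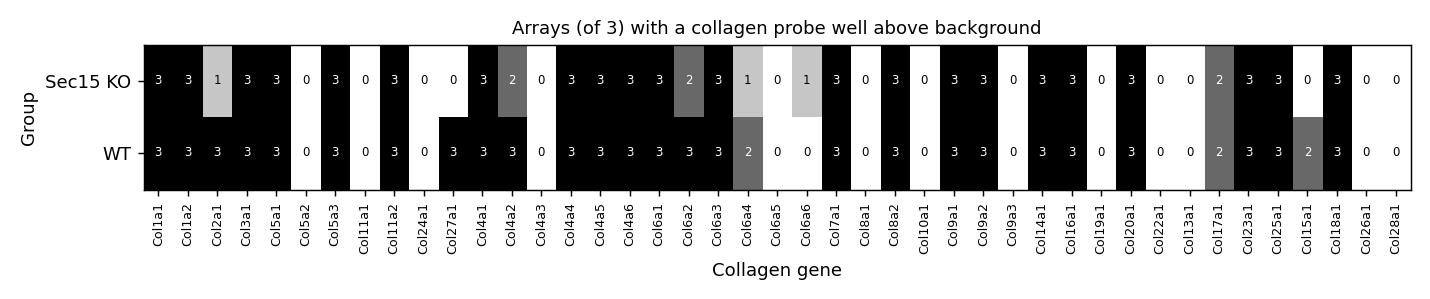
Number of arrays of each group (out of 3) on which at least 1 probe of each of the 43 collagen genes was well above background, with Sec15 KO in the upper row and WT in the lower row; black is 3 and white is 0. Col27a1 was above background on 0 Sec15 KO arrays and 3 WT arrays, and 13 genes were at 0 in both rows.

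In Sec15 KO liver 2 collagen genes were higher, Col14a1 and Col18a1, and 4 were lower, Col27a1, Col5a3, Col4a4 and Col4a5. These 6 calls are 22.2% of the 27 genes tested, below the 29.6% of all genes called. By direction the shares were 7.41% higher, against 17.4% of all genes, and 14.8% lower, against 12.2%. At an unadjusted p under 0.05, 9 of the 27 collagen genes differed, against 10389 of all 22810 genes. The median difference of the 27 genes was -0.09, with 20 genes below 0 and 7 above. The groups did not overlap in 8 collagen genes (29.6%), 2 above and 6 below, against 50.8% of all genes (30.6% above and 20.1% below). With the scan time as a block 2 collagen genes were called, Col27a1 and Col6a2, where 9.75% of all genes were. That block compares Sec15 KO replicate 2 alone with WT. After cyclic loess, which removes differences that follow brightness, 5 were called, where 23.3% of all genes were. Without Sec15 KO replicate 3 or WT replicate 3, Col27a1 was the single collagen call, where 4.32% and 2.7% of all genes were called. Without WT replicate 2 Col27a1 and Col5a3 were called (9.88% of all genes), and without Sec15 KO replicate 1 Col27a1, Col4a4 and Col5a3 (11.7% of all genes). Without Sec15 KO replicate 2 there were 10, the 6 above with Col2a1, Col4a1, Col8a2 and Col23a1, where 47.4% of all genes were called. Col27a1 passed the detection filter through the WT arrays alone, so it had to differ, and its calls are not read as support. In whole liver, fewer cells of a type and less RNA per cell cannot be told apart.

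**Figure D2:**
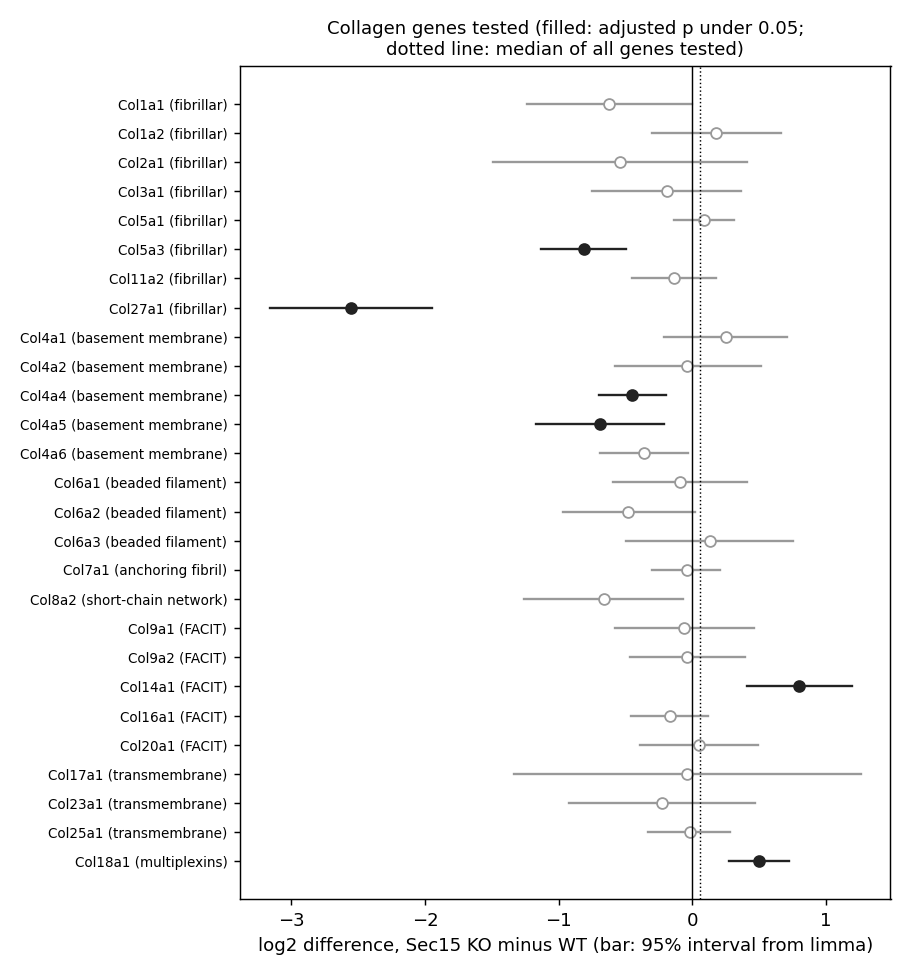
Difference between Sec15 KO and WT (log2) for the 27 collagen genes tested, grouped by type, with 95% intervals from limma; filled points passed the adjusted threshold and the dotted line marks the median of all genes, 0.06. The intervals of the 2 genes called higher and the 4 called lower stand apart from 0. Those of Col4a6 (-0.69 to -0.03) and Col8a2 (-1.26 to -0.07), which were not called, also lie below 0, and that of Col1a1 ends at 0.00. Col27a1 was well above background on 0 Sec15 KO arrays, so its point at -2.55 is a fitted value and not a measured size.

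Col27a1, a fibrillar collagen on chromosome 4 known from cartilage, was measured well above background in WT livers alone. Its values were -5.11, -4.27 and -4.55 in Sec15 KO livers, against -1.84, -2.33 and -2.10 in WT livers. All Sec15 KO values were low and not well above background, and all WT values were. The processed signal was therefore lower in Sec15 KO, with an approximate bound of 3.49-fold. The adjusted p of the limma fit, 0.00607, belongs to the fitted difference of -2.55 and not to the bound. It is not read as support, since the gene entered the test through the WT arrays alone. This bound sets the WT mean against the lowest signal well above background on each Sec15 KO array, or the probe's own signal where that is higher. That lowest signal is taken over all probes, so it is not the detection limit of each probe. A Col4a4 probe read -3.88 on Sec15 KO replicate 1, above that array's lowest signal of -4.04, and was not well above background. Under normexp with quantile normalisation the Col27a1 difference was -0.72, a smaller change than 3.49-fold. That setting adds an offset of 50 to every signal, which shrinks the log2 differences of dim probes. The -0.72 is therefore not a like measure to set against the bound. Col27a1 was in the dimmest decile of genes, whose median difference was -0.29. With a filter that asks for all 6 arrays Col27a1 was not tested.

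Col5a3, on chromosome 9, codes for the alpha-3 chain of type V collagen, a fibrillar type that nucleates and thins type I fibrils. It had 0.69, 0.59 and 0.64 in Sec15 KO livers, against 1.67, 1.26 and 1.45 in WT livers. The groups did not overlap, and the Sec15 KO values were close together. The signal was 1.76-fold lower in Sec15 KO (log2 difference -0.81, SE 0.13, adjusted p = 0.0116). With the scan time as a block it was -0.86 (adjusted p = 0.0501). Its partner Col5a1, the alpha-1 chain, had -1.29, -1.18 and -1.17 in Sec15 KO livers, against -1.23, -1.35 and -1.32 in WT livers. These groups overlapped (difference 0.09, 95% interval -0.14 to 0.31, adjusted p = 0.481).

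The main chains of interstitial collagen did not pass the test as reported. Col1a1, the alpha-1 chain of type I, had 1.28, 0.56 and 0.99 in Sec15 KO livers, against 1.93, 1.21 and 1.56 in WT livers. Sec15 KO replicate 1 stood above WT replicate 2, so the groups overlapped (difference -0.62, SE 0.25, 95% interval -1.24 to 0.00, adjusted p = 0.109). Col1a1 passed with the replicate number as a block (-0.62, adjusted p = 0.0277), where 23.3% of all genes were called, and with array weights (-0.52, adjusted p = 0.0107), where 72.1% were. Col1a2, the alpha-2 chain that joins it in the type I helix, had 1.16, 0.76 and 1.13 in Sec15 KO livers, against 1.13, 0.52 and 0.85 in WT livers. Its difference was 0.18 (SE 0.20, 95% interval -0.30 to 0.66, adjusted p = 0.486), and -0.03 after normexp and quantile normalisation. With array weights it passed at 0.27 (adjusted p = 0.0471). Col3a1, the single chain of type III, which forms the fine reticular fibres of liver, had 2.97, 2.52 and 2.82 in Sec15 KO livers, against 3.34, 2.57 and 2.97 in WT livers. Replicate 2 was the lowest of each group, and the difference was -0.19 (95% interval -0.75 to 0.36, adjusted p = 0.532). Col2a1 and Col11a2, chains of cartilage fibrils, differed by -0.54 (adjusted p = 0.311) and -0.14 (adjusted p = 0.43). Of the 8 fibrillar genes tested, 0 were called higher and 2 lower, against 17.4% and 12.2% of all genes, with 0 higher and 3 lower at an unadjusted p under 0.05. One of the 2 is Col27a1, which entered the test through the WT arrays alone.

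**Figure D3:**
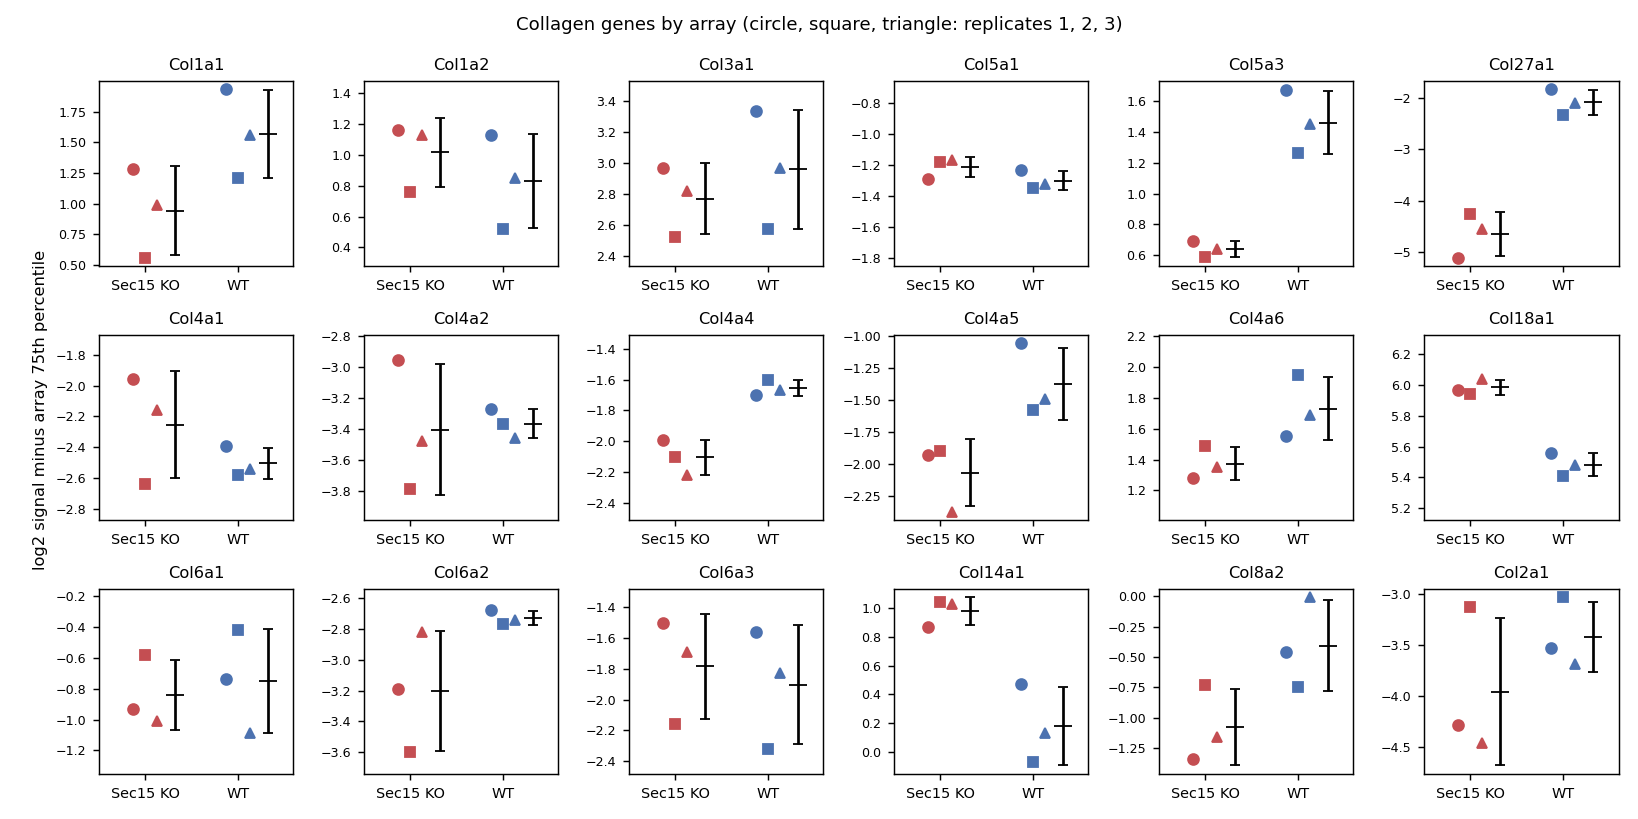
Log2 signal minus the array's 75th percentile for 18 collagen genes on each array, with Sec15 KO (red) left of WT (blue); circles, squares and triangles are replicates 1, 2 and 3, and bars are mean ± SD (n = 3), each panel having its own scale. Col27a1, Col5a3, Col4a4, Col4a5, Col4a6 and Col6a2 had all Sec15 KO values below all WT values, and Col14a1 and Col18a1 had them above.

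Because probes differ in binding, chains were compared through the difference between 2 chains on the same array, and only the change of that difference between groups was read. Col1a1 minus Col1a2 was 0.12, -0.19 and -0.14 on Sec15 KO arrays, against 0.80, 0.70 and 0.71 on WT arrays. The groups were apart by far more than their spread, -0.07 ± 0.17 in Sec15 KO and 0.74 ± 0.06 in WT (SD, n = 3 each). The signal ratio of Col1a1 to Col1a2 was thus 1.75-fold lower in Sec15 KO (change -0.81, and -0.93 within scan 1). By an exact permutation test (two-sided) p was 0.1, and 3 against 3 cannot give less. Over the alternative settings the change stayed between -0.93 and -0.68.

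Col5a1 minus Col5a3 was -1.98, -1.77 and -1.81 on Sec15 KO arrays, against -2.90, -2.61 and -2.76 on WT arrays. Here every Sec15 KO value was higher (change 0.90, within scan 1 0.98, exact permutation p = 0.1). Of 16 pairs of chains within a type, 6 had groups that did not overlap (37.5%), against 47% of all pairs of genes tested. A difference apart and at least as large as that of Col1a1 and Col1a2 was found in 27.5% of all pairs, so such a change is common on these arrays.

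**Figure D4:**
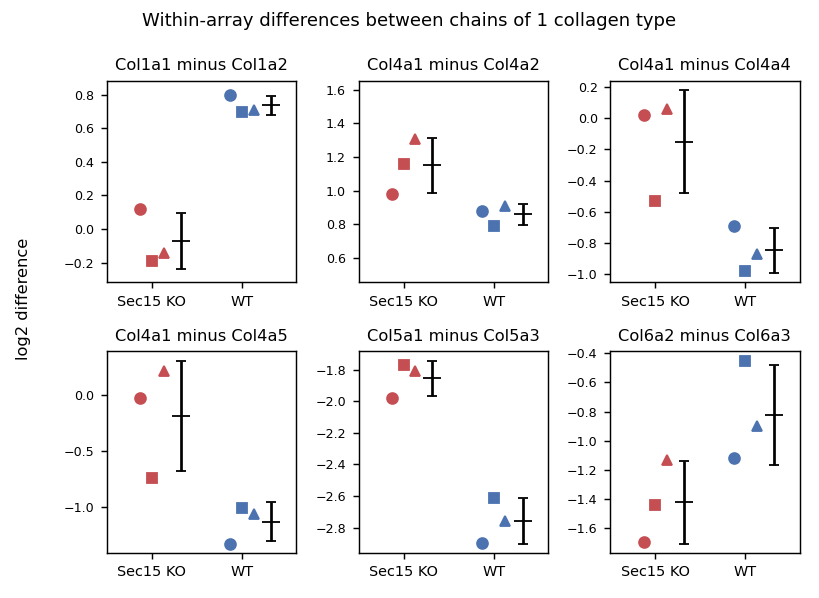
Difference in log2 signal between 2 chains of a collagen type on the same array, for the 6 pairs whose groups did not overlap, with Sec15 KO (red) left of WT (blue); symbols are replicates 1 (circle), 2 (square) and 3 (triangle) and bars mean ± SD (n = 3), each panel having its own scale. Col1a1 minus Col1a2 was 0.70 to 0.80 on WT arrays and -0.19 to 0.12 on Sec15 KO arrays.

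Type IV collagen is the network of basement membranes, and its 6 chains are arranged in 3 head-to-head gene pairs. Col4a4, on chromosome 1, had -1.99, -2.10 and -2.22 in Sec15 KO livers, against -1.70, -1.60 and -1.67 in WT livers. All Sec15 KO values were lower (1.36-fold lower, log2 difference -0.45, SE 0.10, adjusted p = 0.0253). Its second probe differed by -0.59 (adjusted p = 0.0938), well above background on 1 Sec15 KO array and 3 WT arrays. Col4a5, on chromosome X, had -1.93, -1.90 and -2.37 in Sec15 KO livers, against -1.06, -1.58 and -1.49 in WT livers. These groups did not overlap either (1.61-fold lower, log2 difference -0.69, SE 0.20, adjusted p = 0.0456). With the scan time as a block both calls ended, at -0.45 (adjusted p = 0.0884) for Col4a4 and -0.52 (adjusted p = 0.243) for Col4a5. Both also missed the threshold under quantile normalisation (-0.35, adjusted p = 0.0699, and -0.59, adjusted p = 0.064) and median centring (-0.33, adjusted p = 0.0906, and -0.57, adjusted p = 0.0585).

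Col4a6, the head-to-head neighbour of Col4a5, had 1.28, 1.49 and 1.35 in Sec15 KO livers, against 1.55, 1.95 and 1.69 in WT livers. The groups did not overlap, but the difference missed the threshold (-0.36, SE 0.13, adjusted p = 0.0913). Col4a1 and Col4a2 make the common form of type IV collagen and are the other pair with both genes tested. Col4a1 had -1.96, -2.64 and -2.16 in Sec15 KO livers, against -2.39, -2.58 and -2.54 in WT livers. Col4a2 had -2.95, -3.79 and -3.48 in Sec15 KO livers, against -3.27, -3.37 and -3.46 in WT livers. For both genes Sec15 KO replicate 2 was the lowest array and replicate 1 the highest. The differences were 0.25 (95% interval -0.21 to 0.71, adjusted p = 0.331) and -0.04 (95% interval -0.58 to 0.51, adjusted p = 0.905). The sign for Col4a1 turned with the scan time as a block (-0.13), and that for Col4a2 turned under quantile normalisation (0.11), median centring (0.08), cyclic loess (0.10) and normexp (0.08). On the same arrays, Col4a1 minus Col4a5 was 0.94 higher in Sec15 KO than in WT and Col4a1 minus Col4a4 was 0.70 higher. Within scan 1 these changes were 0.39 and 0.32.

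The other 2 called genes were higher. Col18a1, on chromosome 10, codes for a basement membrane proteoglycan made by hepatocytes and the source of the fragment endostatin. It had 5.97, 5.94 and 6.04 in Sec15 KO livers, against 5.56, 5.41 and 5.48 in WT livers. The groups were well apart (1.41-fold higher, log2 difference 0.50, SE 0.09, adjusted p = 0.0162). Its second probe had 5.44, 5.56 and 5.50 in Sec15 KO livers, against 5.26, 5.07 and 5.16 in WT livers, again with no overlap (0.34, adjusted p = 0.0476). Col18a1 lay in the brightest decile of genes, whose median difference was 0.29. Its call ended after cyclic loess (0.21, adjusted p = 0.13), quantile normalisation (0.17, adjusted p = 0.198) and with the scan time as a block (0.45, adjusted p = 0.0666).

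Col14a1, on chromosome 15, codes for a collagen that binds the surface of fibrils and limits their growth (a FACIT). It had 0.87, 1.04 and 1.03 in Sec15 KO livers, against 0.47, -0.07 and 0.13 in WT livers. All Sec15 KO values were above WT (1.74-fold higher, log2 difference 0.80, SE 0.16, adjusted p = 0.0185). Its second probe had -2.45, -2.20 and -2.19 in Sec15 KO livers, against -2.73, -2.41 and -2.40 in WT livers. There the groups overlapped (0.23, SE 0.14, adjusted p = 0.236). With the scan time as a block the first probe stood at 0.86 (adjusted p = 0.0727).

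Type VI collagen forms beaded filaments around cells, from chains coded by Col6a1, Col6a2 and Col6a3. Col6a1 had -0.93, -0.58 and -1.01 in Sec15 KO livers, against -0.74, -0.42 and -1.09 in WT livers. Col6a2 had -3.19, -3.60 and -2.82 in Sec15 KO livers, against -2.68, -2.77 and -2.74 in WT livers. Col6a3 had -1.50, -2.16 and -1.69 in Sec15 KO livers, against -1.56, -2.32 and -1.83 in WT livers. For Col6a2 the Sec15 KO values were all lower and spread more widely than the WT values, while the groups overlapped for the other two. The differences were -0.09 (adjusted p = 0.749), -0.48 (SE 0.20, adjusted p = 0.118) and 0.13 (adjusted p = 0.72). Col6a2 was well above background on 2 Sec15 KO arrays and 3 WT arrays. Its lowest value, -3.60 on Sec15 KO replicate 2, was close to the lowest signal well above background on that array, -3.66. With the scan time as a block Col6a2 passed the threshold at -0.87 (adjusted p = 0.0453), which rests on Sec15 KO replicate 2 alone. Under that block the sign of Col6a1 (0.17) and that of Col6a3 (-0.25) turned.

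The other 11 genes not called outside types I, III, IV, V and VI differed by between -0.66 and 0.05, with adjusted p from 0.0859 to 0.958. Col8a2, of the short-chain network type known from the cornea's Descemet membrane, had -1.34, -0.73 and -1.16 in Sec15 KO livers, against -0.46, -0.75 and -0.01 in WT livers. Sec15 KO replicate 2 stood just above WT replicate 2, so the groups overlapped (-0.66, SE 0.24, adjusted p = 0.0859). Col7a1, of the anchoring fibrils of skin, differed by -0.04 (95% interval -0.30 to 0.21). Of the FACIT genes, Col9a1, Col9a2, Col16a1 and Col20a1 differed by between -0.17 and 0.05. Of the transmembrane genes, Col17a1, Col23a1 and Col25a1 differed by between -0.23 and -0.02, with a wide interval for Col17a1 (-1.33 to 1.26). A second probe passed the filter in 6 of the 27 genes, and in each its difference had the sign of the first.

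The promoters of 3 called genes are shown because at least 200 bases before a start of each lie outside annotated transcripts. They are written 5′ to 3′. Bases in capitals match the GC box (GGGCGG) or the CCAAT box (CCAAT) on either strand. The Col18a1 window is the 250 bases before 1 of its 2 annotated starts, chr10:77166531-77166780 on the minus strand of GRCm38.p6. The probes were not assigned to a start. The Col4a5 window is chrX:141475169-141475369 on the plus strand and the Col5a3 window chr9:20815118-20815317 on the minus strand. In both the bases nearest the start are left out.
Col18a1: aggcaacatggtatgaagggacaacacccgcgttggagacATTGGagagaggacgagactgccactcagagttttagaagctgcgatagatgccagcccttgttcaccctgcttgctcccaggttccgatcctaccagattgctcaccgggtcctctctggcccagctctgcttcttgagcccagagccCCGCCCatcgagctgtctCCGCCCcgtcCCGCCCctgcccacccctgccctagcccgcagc
Col4a5: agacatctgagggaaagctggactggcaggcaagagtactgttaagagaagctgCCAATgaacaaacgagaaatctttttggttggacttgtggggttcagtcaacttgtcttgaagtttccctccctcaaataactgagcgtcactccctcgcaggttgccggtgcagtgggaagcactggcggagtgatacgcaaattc
Col5a3: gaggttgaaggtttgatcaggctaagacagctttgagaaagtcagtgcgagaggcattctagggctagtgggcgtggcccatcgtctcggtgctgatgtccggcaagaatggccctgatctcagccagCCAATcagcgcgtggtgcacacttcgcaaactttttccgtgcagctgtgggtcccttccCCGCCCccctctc

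Col18a1 held 3 GC boxes close together and 1 CCAAT box farther from the start, and Col4a5 and Col5a3 held 1 CCAAT box each in the part shown, Col5a3 with 1 GC box. The start of Col4a5 lies 1343 bases from that of Col4a6, and the starts of Col4a1 and Col4a2 lie 21 bases apart. RefSeq windows were at hand for 24 of the 27 tested genes. GC boxes were found in 16 of these 24, against 32.7% of 32851 windows of 250 bases. Col18a1, Col6a2 and Col9a1 had more than 1 window and counted if any of them matched, while the shares are of single windows. CCAAT boxes were found in 11 of 24, against 33.8%. The TATA box TATAAA was found in 3 of 24, against 12.4% of windows. The STAT motif TTCNNNGAA was found in 0 of 24, against 7.02%. The collagen windows were richer in G and C, with a median of 59.6% against 52.4%, which moves with the GC box count. A match is a match of letters in this window only.

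The making of collagen was followed through lists of genes chosen with earlier results of these data known. Their counts stand beside the 17.4% of all genes called higher and the 12.2% called lower. Counts at an unadjusted p under 0.05 stand beside 10389 of all 22810 genes, both directions together. Among 20 measured genes of chain modification and folding, 2 rose and 3 fell (median -0.04). Sparc, a collagen chaperone and matrix protein, had 4.52, 4.20 and 4.41 in Sec15 KO livers, against 3.94, 3.54 and 3.68 in WT livers. It rose by 0.66 on the log2 scale (adjusted p = 0.0241), and 0.71 on its second probe (adjusted p = 0.0213). P3h3, a prolyl 3-hydroxylase, rose by 0.47 (adjusted p = 0.0255). P4ha3, a subunit of prolyl 4-hydroxylase, fell by 0.60 (adjusted p = 0.0216; second probe 0.03), and Plod1, a lysyl hydroxylase, fell by 0.48 (adjusted p = 0.0264; second probe -0.19). Pdia3, a disulfide isomerase of the endoplasmic reticulum, also fell. Serpinh1 (Hsp47), the chaperone dedicated to procollagen, had 1.32, 1.34 and 1.31 in Sec15 KO livers, against 1.35, 1.34 and 1.31 in WT livers. The groups overlapped and the difference was -0.01 (SE 0.08).

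Procollagen leaves the endoplasmic reticulum in COPII carriers. Of 11 measured export genes, 3 rose and 0 fell (4 and 0 at an unadjusted p under 0.05), with a median of 0.26. Sec23a, a COPII coat subunit, had 1.47, 1.05 and 1.32 in Sec15 KO livers, against 0.75, 0.36 and 0.56 in WT livers. The groups did not overlap (difference 0.72, SE 0.16, adjusted p = 0.0236). Trappc2, a tethering factor needed for collagen export, rose by 0.48 (adjusted p = 0.0256), and Sec24d, a cargo-binding coat subunit, by 0.46 (adjusted p = 0.0257). Mia3 (TANGO1), the receptor that loads procollagen, differed by 0.08 (adjusted p = 0.567). After cyclic loess 2 of these genes were called, and 0 with the scan time as a block.

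Of 12 measured genes of processing and cross-linking, 1 rose and 1 fell (median 0.08). Pcolce2, an enhancer of propeptide removal, rose by 0.47 (adjusted p = 0.0362). Loxl4, a lysyl oxidase, had -3.28, -4.96 and -2.74 in Sec15 KO livers, against -1.76, -1.80 and -1.71 in WT livers. All Sec15 KO values were lower and widely spread (-1.90, SE 0.55, adjusted p = 0.0476), with the second probe at -0.76 (adjusted p = 0.192). Loxl4 was well above background on 2 Sec15 KO arrays and 3 WT arrays. Its difference was -1.25 (adjusted p = 0.00669) without Sec15 KO replicate 2, and over 18 alternatives it was between -3.20 and -0.59 and missed the threshold in 12. Lox itself differed by 0.20 (adjusted p = 0.248). Of 8 measured collagen receptors, Ddr1, a receptor kinase, rose by 0.75 (adjusted p = 0.0489) and 0 fell (0 at an unadjusted p under 0.05).

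Of 13 measured genes of collagen breakdown and its inhibitors, 1 rose and 2 fell (median -0.32). Mmp19, a matrix metalloproteinase, had -1.28, -1.65 and -1.40 in Sec15 KO livers, against 0.00, 0.31 and 0.63 in WT livers. The groups were far apart (-1.75, SE 0.19, 3.37-fold lower, adjusted p = 0.00663). Ctsk, a collagen-cutting cathepsin, fell by 0.75 (adjusted p = 0.0393). Timp3, an inhibitor of metalloproteinases bound to the matrix, rose by 0.84 (adjusted p = 0.0141).

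Of 22 measured matrix proteins that bind collagen, 7 were higher and 2 lower, with a median of 0.23, against 17.4% higher and 12.2% lower of all genes. Postn (periostin), which promotes collagen cross-linking, had 0.88, 1.04 and 1.13 in Sec15 KO livers, against -0.50, -1.25 and -1.30 in WT livers. All Sec15 KO values were high (4.09-fold, difference 2.03, SE 0.23, adjusted p = 0.0069). Of the basement membrane partners of type IV collagen, Lama1 rose by 0.84 (adjusted p = 0.0072) and Hspg2 (perlecan) by 0.50 (adjusted p = 0.0138). Lama2 fell by 0.66 (adjusted p = 0.00908) on 1 probe and stood at 0.02 on its second. After cyclic loess 4 were higher and 2 lower, and with the scan time as a block 3 and 1.

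Of 19 measured genes of the TGF-beta pathway, which induces collagen genes, 4 rose and 0 fell (7 and 0 at an unadjusted p under 0.05), with a median of 0.17, and after cyclic loess 3 rose and 1 fell. Ccn2, a matrix protein and TGF-beta target, had 0.38, 0.36 and 0.31 in Sec15 KO livers, against -0.16, -0.33 and -0.24 in WT livers. The groups did not overlap (0.59, SE 0.09, adjusted p = 0.0113). The signal carriers Smad4 and Smad2 rose by 0.36 (adjusted p = 0.0275) and 0.32 (adjusted p = 0.038) on the log2 scale. Tgfb1 was not well above background on any array.

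Markers of the cells that make collagen were read beside these results. Of 12 measured stellate cell markers, 5 rose and 1 fell (median 0.32). After cyclic loess 5 were higher and 1 lower, and with the scan time as a block 2 and 0. The summed signal of the list relative to the 75th percentile was 26.8 to 34.0 on Sec15 KO arrays and 20.5 to 20.9 on WT arrays. Lrat, which stores retinol, rose by 0.61 (adjusted p = 0.0102) and Colec11 by 0.83 (adjusted p = 0.00963). Ngfr, a neurotrophin receptor, fell by 1.94 (adjusted p = 0.0105), and Reln, Des and Nkx3-2 were not well above background on any array.

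Of 5 measured myofibroblast and smooth muscle markers, 0 rose and 2 fell (0 and 2 at an unadjusted p under 0.05). Acta2, the actin of activated stellate cells and smooth muscle, had -0.10, 0.17 and -0.10 in Sec15 KO livers, against 0.63, 1.13 and 0.98 in WT livers. All Sec15 KO values were lower (-0.93, SE 0.16, adjusted p = 0.0143), and Myl9 fell by 0.52 (adjusted p = 0.0397). The list's sum was 4.55 to 5.75 on Sec15 KO arrays and 6.79 to 7.08 on WT arrays, with Myh11 and Lmod1 not above background. Portal fibroblast markers gave 0 higher and 1 lower of 8 (2 and 1 at an unadjusted p under 0.05), namely Fbln2 (-0.64, adjusted p = 0.0164). Their sums overlapped, 3.64 to 3.84 on Sec15 KO arrays and 3.60 to 4.30 on WT arrays.

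Endothelial markers were higher in 6 of 11 and lower in 0 (7 and 0 at an unadjusted p under 0.05). After cyclic loess 4 were higher and 0 lower, and with the scan time as a block also 4 and 0. Their sums were 40.4 to 49.1 on Sec15 KO arrays and 29.7 to 30.6 on WT arrays. Kdr, among those called higher (0.41, adjusted p = 0.0435), stood at -0.29 on its second probe (adjusted p = 0.073), so its direction depends on the probe. Vwf rose by 1.33 (adjusted p = 0.00623), and Stab2 and Stab1, scavenger receptors of liver sinusoids, by 0.99 (adjusted p = 0.00625) and 0.84 (adjusted p = 0.0105). Hepatocyte markers were higher in 3 of 11 and lower in 1 (1 and 3 after cyclic loess, 1 and 0 with the scan time as a block), with sums of 3440 to 4030 on Sec15 KO arrays and 3110 to 3480 on WT arrays. All 11 hepatocyte markers were well above background on all arrays. Fga, a fibrinogen chain, was the one lower (-0.56, adjusted p = 0.0237), and its second probe was higher (0.88, adjusted p = 0.0107). Of the other lists, cholangiocyte markers gave 0 higher and 2 lower of 6 (0 and 2 unadjusted), mesothelial markers 0 and 0 of 3 (0 and 1 unadjusted), cartilage and skeletal muscle markers 0 and 1 of 3 (0 and 2 unadjusted) and pancreas markers 1 and 7 of 9 (0 and 6 after cyclic loess, 0 and 2 with the scan time as a block). Of the pancreas genes, the trypsin genes Try4 and Try5, close copies whose probes could share signal, fell by 3.80 (adjusted p = 0.0103) and 3.73 (adjusted p = 0.0129) on the log2 scale. Try4 was well above background on 1 Sec15 KO array and 3 WT arrays. Amy2a5, an amylase, was 0.49 higher (adjusted p = 0.0146) and was the brightest of the list on every array. Pancreas sums were 12.8 to 13.0 on Sec15 KO arrays and 12.8 to 16.6 on WT arrays, and Comp, Matn1 and Matn3 of cartilage were above background on no array. The part of any of these cell types in the collagen values was not tested.

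**Figure D5:**
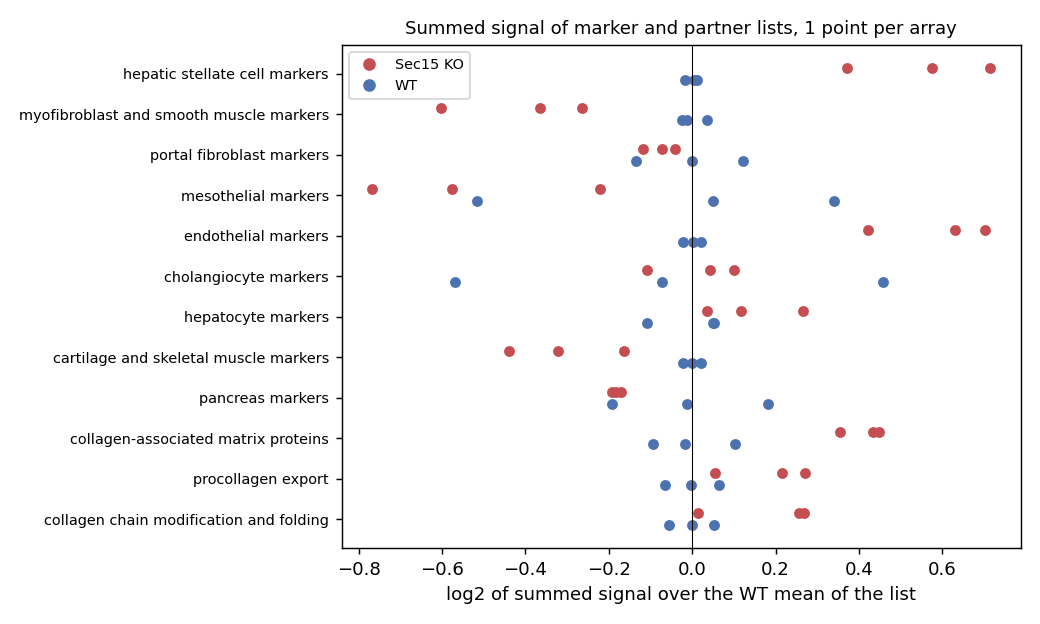
Summed signal of each marker and partner list on each array, as log2 of its ratio to the WT mean of the list, with Sec15 KO (red) above WT (blue) in each row. Stellate and endothelial sums of all Sec15 KO arrays lie above the WT arrays, and the myofibroblast and smooth muscle sums lie below.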

How the data were processed

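The deposited files hold intensity per spot, which the authors read with Agilent Feature Extraction 11.0.1.1, per the file headers. The processed signal used here has local background and spatial trend removed, without scaling across arrays. Among other deposited columns, flags of 0 or 1 mark saturated spots, outliers and spots well above background. Each array had 43020 spots for 39429 probes; 178 to 236 outlier spots per array were left out, none was saturated, and spots of a probe were averaged. Precision is limited by the number of arrays.

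Probes were named through their accessions in a RefSeq table of GRCm38.p6 (27234 with a symbol, 12195 without). The 27024 probes well above background on at least 3 arrays gave 22810 genes, compared with limma 3.58.1 in R 4.3.3 at a Benjamini-Hochberg threshold of 0.05, a procedure also tested on simulated data. Same-chain-type differences were compared by exact permutation. Bounds use the lowest signal among probes well above background on each array. Promoters came from RefSeq.

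The genes named were every collagen gene, with values on all arrays for called genes and for the chains of types I, III, IV, V, VI, XIV, XV and XVIII that passed the filter (Col2a1, Col8a2 and others were added after their values were seen), and up to 4 members with the smallest p of each list. Some list members that this rule names are left out of the text. Members and lists were chosen with earlier results of these data known. The alternatives were quantile normalisation, median centring, cyclic loess, normexp (offset 50) on median signals with quantile normalisation, 2 other filters, array weights, a robust eBayes with trend, each probe alone, probe means per gene, the replicate block, the scan time as a block, scan 1 alone, leaving out each replicate, and averaging WT replicates 1 and 2. The deviations of arrays with the same replicate number correlated at 0.11, 0.11 and 0.02, and those of unlike numbers at -0.11 to 0.04. Whether the numbers pair the samples is not known. These correlations cannot decide it, because they run over all genes tested and pairing could act on some genes only.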

Additional observations from a re-analysis of the deposited data

Results flagged for a closer look

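A signal outside the genes tested stood out on 1 array, Sec15 KO replicate 2. The Col6a4 probe A_66_P135947 read -1.82 there on the log2 scale and was well above background, against -6.11 and -6.07 on the other Sec15 KO arrays and -5.34, -5.87 and -4.91 on the WT arrays. The Col6a6 probe A_51_P105847 read -1.86 on the same array, against -6.11 and -6.09 on the other Sec15 KO arrays and -6.38, -6.17 and -6.39 on the WT arrays. Each is 1 spot, with no outlier flag, and the other probes of both genes were not above background on that array. Probes above background on 1 array alone, and at least 3 above the next array on the log2 scale, numbered 21, 35 and 35 on the Sec15 KO arrays and 20, 10 and 28 on the WT arrays.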

How the results depend on the processing

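The number of arrays, 6, limits all calls. Against 6 collagen genes as reported, 3 were called under quantile normalisation and 3 under normexp with quantile normalisation. There were 14 with array weights and 2 with the scan time as a block. Of all genes, 24.9% were called under quantile normalisation, 26.6% under normexp and 72.1% with array weights, against 29.6% as reported. On scan 1 alone, with Sec15 KO replicate 2 assumed to vary like WT, limma called 0 collagen genes and 0 of all genes (9 and 6760 at an unadjusted p under 0.05). Leaving out each replicate gave 1 to 10 collagen genes. Without Sec15 KO replicates 1, 2 and 3 there were 3, 10 and 1. Without WT replicate 1 there were 5 (26.4% of all genes were called), without WT replicate 2 there were 2 and without WT replicate 3 there was 1. Col27a1 remained in each of these, but it entered the test through the WT arrays alone and is not tested under the filter on all 6 arrays. Col14a1, Col27a1 and Col5a3 remained under both quantile settings, and Col27a1 alone of the 6 with the scan block, which added Col6a2.

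Of all genes, 16436 were called with array weights, 2225 with the scan block and 615 to 10805 with a replicate left out (2677 and 985 without Sec15 KO replicates 1 and 3, 10805 without Sec15 KO replicate 2, 2254 and 615 without WT replicates 2 and 3), against 6756. The calls were 58.7% higher as reported, 69.5% with median centring and 46.4% after cyclic loess. The replicate block takes the numbers as pairs, which the labels do not state. It gave 5 collagen genes, namely 4 of the 6 (without Col4a4 and Col4a5) and Col1a1, and 5318 of all genes.

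The collagen median of -0.09 was -0.02 under quantile normalisation, 0.03 with median centring, -0.04 with normexp, -0.07 with the filter on all arrays, -0.04 with no filter, -0.14 with array weights, -0.06 over every probe, -0.16 with the scan block and on scan 1 alone, -0.10 with WT replicates 1 and 2 averaged, and -0.19 to -0.09 with a replicate left out.

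All 6 called collagen genes kept their direction in every alternative in which they were tested. Reversed values were those of genes not called, with the exception of Fga (0.16 as the mean of its probes). Col4a2 was 0.11 (quantile), 0.08 (median centring, normexp and array weights), 0.10 (loess), and -0.27 to 0.16 with a replicate left out (0.01 without WT replicate 1). Col6a1 was 0.03 (median centring), 0.07 (array weights), 0.17 (scan block and scan 1) and -0.26 to 0.07 with a replicate left out. Col1a2 was -0.03 (normexp) and -0.07 (scan block and scan 1). Col2a1 was 0.29, Col4a1 -0.13 and Col6a3 -0.25 in both scan settings, and Col6a3 was -0.08 to 0.31 with a replicate left out (-0.02 without Sec15 KO replicate 1). Of 43 called partner and marker genes named, 20 passed the test with the scan block, 43 kept their direction there and 33 passed after cyclic loess. Why these values moved was not tested.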

Other observations

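Several partner genes had a second tested probe that differed from the one used, and they are given here because of their values. Adamts14, which removes procollagen propeptides, differed by 0.01 on the probe used. Its second probe had -2.25, -2.18 and -2.29 on Sec15 KO arrays, against -3.31, -3.58 and -3.53 on WT arrays (1.23, limma adjusted p = 0.00608). Itgb1, the beta-1 subunit of the collagen-binding integrins, stood at 0.61 (adjusted p = 0.0837) on the probe used and 1.37 (adjusted p = 0.0273) on its second. For Loxl2, a lysyl oxidase, the values were 0.15 and, on another probe, 0.48 (adjusted p = 0.0165). Ecm1, a secreted matrix protein, differed by 0.43 (adjusted p = 0.113) on the probe used and -0.64 (adjusted p = 0.0105) on its second, so its direction depends on the probe.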
